A study of Homo sapiens with 6 samples.

Results

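The cyclins E1, E2, D1, A2, B1 and B2 and the cyclin-dependent kinases CDK1, CDK2 and CDK4 were followed in neuroblastoma cells that carried a hairpin against BRG1. These 9 genes were listed by symbol for their places in the cell cycle, out of 14883 genes with a named probe set, and all 9 were measured. A gene with more than 1 probe set was to be read from its brightest, but each of the 9 had 1 probe set, so brightness decided nothing. The list was drawn up with earlier results of the same contrast known, in which CCNE1 and CCNE2 were lower and CCND1 was not past the threshold. The values of the 9 genes are therefore a description, and their number past the threshold supports nothing on its own. The cells were SK-N-BE(2), an established human neuroblastoma line, and the compared groups were 3 samples given a non-silencing control lentivirus (NSC) and 3 given a lentivirus with a BRG1 hairpin (shBRG1). Total RNA was extracted 48 h later, and 200 ng of each sample was hybridised to 1 Affymetrix array. BRG1 is the ATPase of SWI/SNF chromatin remodelling complexes. Its gene, SMARCA4, was not analysed here, so the samples are described by their labels. Both groups are the same line and both carry a lentivirus, and the labels name 1 hairpin against BRG1. The sample titles spell the hairpin shRG1 and the lentivirus label spells it shBRG1, and the groups follow the latter.

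The cell cycle is driven by cyclins, which rise and fall, and by the kinases they switch on. D-type cyclins with CDK4 or CDK6 begin the phosphorylation of the retinoblastoma protein in G1, which frees E2F transcription factors. E2F turns on the E-type cyclins, which activate CDK2 at the start of S phase. Cyclin A2 then acts with CDK2 in S phase and with CDK1 in G2, and the B-type cyclins with CDK1 drive entry into mitosis, after which the anaphase-promoting complex (APC/C) marks cyclins A and B for destruction.

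Promoter sequences are shown for the 2 genes of the set that were lower and had an entry in the RefSeq promoter table (CCNE1 and CCNB1), and for CCNB2, the close relative of CCNB1 that was not past the threshold. Each is the 250 bases before the annotated start, 5′ to 3′ on the plus strand of GRCh38.p14, from chr19:29811741-29811990 for CCNE1, chr5:69166900-69167149 for CCNB1 and chr15:59104896-59105145 for CCNB2. Capitals mark the CCAAT box (CCAAT) and the cell cycle homology region (CHR, TTTGAA), which are known from promoters of mitotic genes.
CCNE1: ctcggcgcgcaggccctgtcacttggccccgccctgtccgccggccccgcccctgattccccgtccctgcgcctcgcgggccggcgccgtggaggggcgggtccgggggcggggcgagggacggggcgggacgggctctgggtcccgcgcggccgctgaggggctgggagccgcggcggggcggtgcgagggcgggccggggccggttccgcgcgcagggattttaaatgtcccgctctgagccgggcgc
CCNB1: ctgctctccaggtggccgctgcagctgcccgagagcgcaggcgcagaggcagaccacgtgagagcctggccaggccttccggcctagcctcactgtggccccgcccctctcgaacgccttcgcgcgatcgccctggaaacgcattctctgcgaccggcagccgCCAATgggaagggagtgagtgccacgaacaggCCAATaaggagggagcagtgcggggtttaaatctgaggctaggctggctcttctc
CCNB2: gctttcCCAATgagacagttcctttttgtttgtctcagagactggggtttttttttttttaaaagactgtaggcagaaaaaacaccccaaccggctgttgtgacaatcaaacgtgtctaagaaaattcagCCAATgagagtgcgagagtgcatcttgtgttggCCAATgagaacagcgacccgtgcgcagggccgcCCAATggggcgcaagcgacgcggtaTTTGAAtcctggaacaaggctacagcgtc
Windows of 300 bases, 250 before the start and 50 after it, were searched on both strands for these letters. They were also searched for the E2F site, in a first form written TTCCCGC. A second form of that site was TTGGCGC, on either strand. CCNB1 held 2 CCAAT boxes, whose first bases lay 87 and 55 bases before the start, and CCNB2 held 4, at 244, 120, 87 and 54 bases before it. CCNB2 also held 1 CHR, 29 bases before the start. CCNE1 and CDK4 held none of the 4 letter strings, CCNA2 held 1 CCAAT box on the other strand 56 bases before its start, and the windows of CDK1, which has entries for 2 starts, held the second E2F form, the CHR and the CCAAT box. Among 35116 promoter windows of the same length, 34.6% held a CCAAT box, 15.2% a CHR, 6.55% the first E2F form and 3.04% the second, on either strand. A match describes letters and not a bound site. Only these exact letters were searched, so variant forms of a site were not counted. A window with no match may still hold such a site. Entries were found for 6 of the 9 genes, and CCNE2, CCND1 and CDK2 had none.

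Expression is given as log2 values of a gene's probe set, so a difference of 1 is a factor of 2. Levels of different probe sets are compared only to place genes above or below the median gene, or to pick a gene's brightest. Array medians lay between 3.77 and 3.84, no 2 arrays were identical, and arrays correlated at r 0.9907 to 0.9925 within groups and 0.9860 to 0.9881 between them across probe sets. The lowest value of any of the 9 genes on any array was 6.56, above the level of the median gene (5.09). Of the sympathetic neuroblast markers fixed for these cells, 7 of the 8 measured lay above that level, with DBH, the enzyme that makes noradrenaline, at 10.96 ± 0.08 in NSC (SD, n = 3). The summed log2 level of those 8 markers was 71.0 to 71.2 in NSC and 68.9 to 69.3 in shBRG1, and 5 of them fell. Of 6 fibroblast markers 2 were measured, DCN and LUM, and both rose (0.44 and 0.39 on the log2 scale), with summed levels of 13.0 to 13.4 in NSC and 13.9 to 14.2 in shBRG1. No Schwann and glial, leukocyte or epithelial marker among the 9 measured passed the threshold. The part of these markers in the cyclin values was not tested.

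In shBRG1 the transcripts of both E-type cyclins and of cyclin B1 were lower, whereas those of cyclins D1, A2 and B2 and of CDK1, CDK2 and CDK4 did not pass the threshold. CCNE1 stood at 58.1% of its NSC level, CCNE2 at 60.1% and CCNB1 at 71.0%, on the linear scale. By limma with Benjamini-Hochberg adjustment over all 14883 genes, 3 of the 9 were lower and 0 higher at an adjusted p of 0.05, and 0 of the 6 remaining had an unadjusted p under 0.05. Over all genes tested, 7.19% were lower and 9.78% higher, 17.0% in all. These shares, used here and for the lists below, include dim genes. With genes below the median gene left out of the fit, 1224 were lower and 1977 higher among fewer genes tested. The shares among brighter genes, where all 9 lie, are thus larger than those of all genes. The median change of the 9 was -0.08, against 0.01 over all genes. The same 3 genes were lower under each of the 15 alternatives run.

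**Figure D1:**
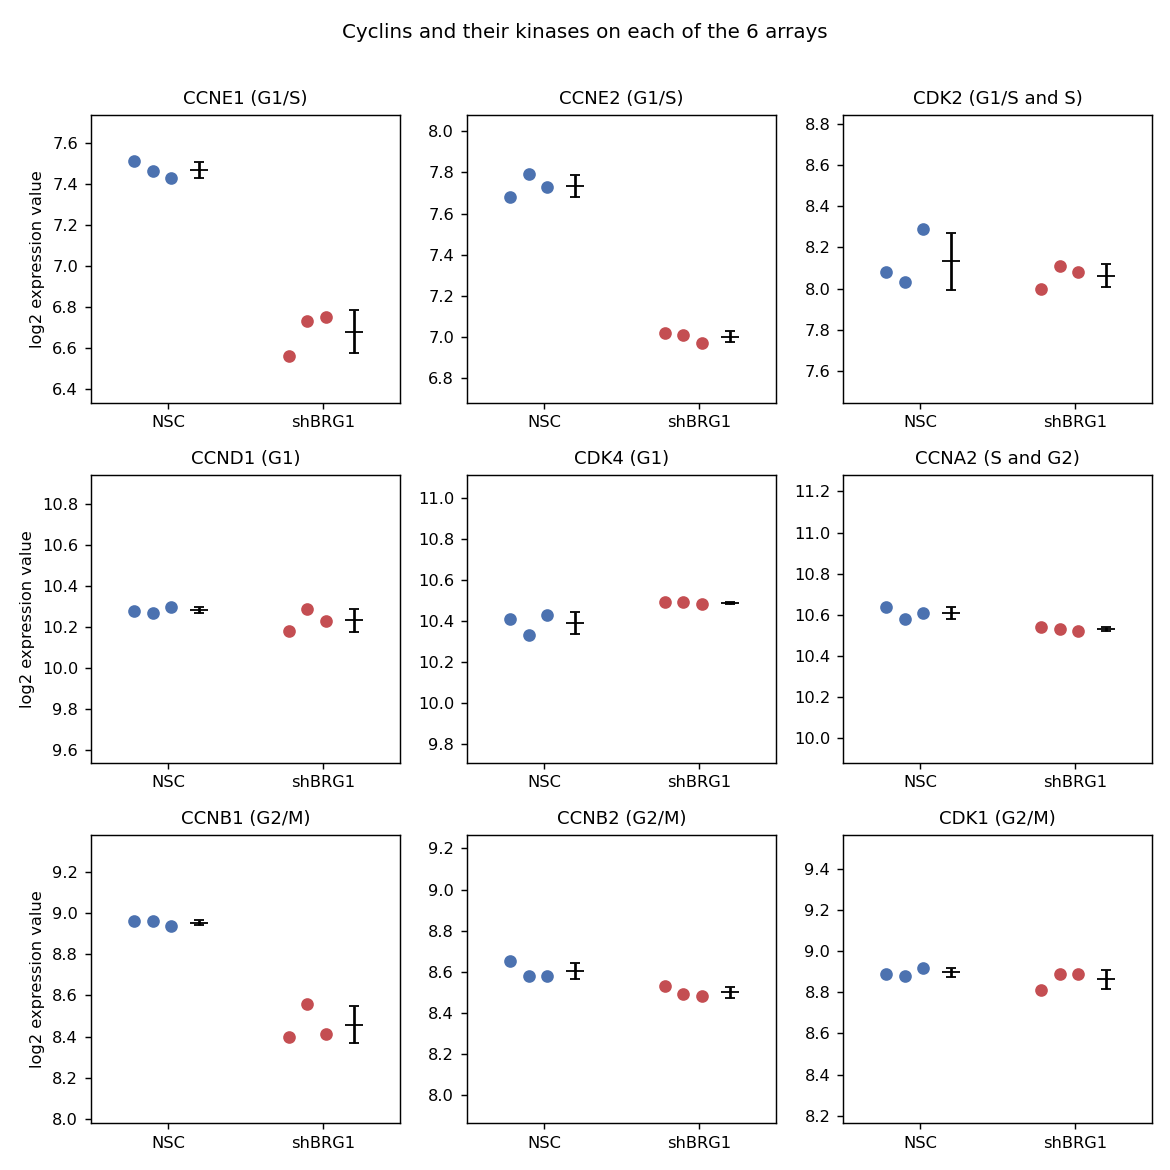
Log2 expression values of the 9 genes on the 3 NSC (blue) and 3 shBRG1 (red) arrays, 1 point per array, with the mean and SD beside them in black; each panel spans the same height of log2 units around its own level. The groups are clearly apart for CCNE1, CCNE2 and CCNB1, and close or overlapping for the other 6 genes.

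Cyclin E1, encoded by CCNE1, is the activator of CDK2 at the G1/S boundary. It read 7.51, 7.46 and 7.43 on the NSC arrays and 6.56, 6.73 and 6.75 on the shBRG1 arrays. The groups did not overlap, and the gap between the lowest NSC and the highest shBRG1 array was 0.67, wider than the SD of either group (0.04 and 0.10, n = 3 each). The change was -0.78 (SE 0.08, 95% interval -0.96 to -0.60, adjusted p = 0.0010), a level 1.72-fold lower. Leaving out 1 array at a time gave changes from -0.82 to -0.72. In a bulk culture, less transcript per cell and fewer cells in the phase that makes it cannot be told apart.

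Cyclin E2, encoded by CCNE2, is the paralogue of cyclin E1 and also activates CDK2. Its values were 7.68, 7.79 and 7.73 in NSC and 7.02, 7.01 and 6.97 in shBRG1. The 3 shBRG1 arrays lay within 0.05 of one another and 0.66 below the lowest NSC array. The change was -0.74 (SE 0.07, 95% interval -0.89 to -0.58, adjusted p = 7.0e-04), or 1.66-fold lower. The intervals of CCNE1 and CCNE2 overlapped over most of their width. Among all genes ordered from the largest fall, CCNE1 was number 152 and CCNE2 number 189.

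CDK2, the kinase that both E cyclins activate, read 8.08, 8.03 and 8.29 in NSC and 8.0, 8.11 and 8.08 in shBRG1. The groups overlapped, and NSC replicate 3 was the highest of the 6 arrays. The change was -0.07 (95% interval -0.28 to 0.13, adjusted p = 0.65), and without NSC replicate 3 it was 0.01. The interval leaves room for a level between 82.5% and 110% of that in NSC, and its lower bound is above the upper bounds of CCNE1 (65.8%) and CCNE2 (66.9%).

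Cyclin D1, encoded by CCND1, couples growth factor signals to the kinases of G1. Its values were 10.28, 10.27 and 10.30 in NSC and 10.18, 10.29 and 10.23 in shBRG1, and the groups overlapped. The change was -0.05 (95% interval -0.20 to 0.10, adjusted p = 0.68), which allows 86.9% to 107% of the NSC level. CDK4, a kinase that cyclin D1 activates, read 10.41, 10.33 and 10.43 in NSC and 10.49, 10.49 and 10.48 in shBRG1. All 3 shBRG1 arrays of CDK4 were above the NSC arrays, by 0.05 at the closest, as were those of 20.3% of all genes. Its change of 0.10 (95% interval -0.05 to 0.25, adjusted p = 0.36) did not pass the threshold.

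Cyclin A2, encoded by CCNA2, acts from S phase into G2. It read 10.64, 10.58 and 10.61 in NSC and 10.54, 10.53 and 10.52 in shBRG1. The shBRG1 arrays were all below the NSC arrays, by 0.03 at the closest, as were those of 15.3% of all genes. The change was -0.08 (95% interval -0.23 to 0.06, adjusted p = 0.45), which allows 85.5% to 105% of the NSC level.

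Cyclin B1, encoded by CCNB1, is the main mitotic activator of CDK1. Its values were 8.96, 8.96 and 8.94 in NSC and 8.40, 8.56 and 8.41 in shBRG1. The NSC arrays were tightly grouped, and the highest shBRG1 array, replicate 2, lay 0.37 below them. The change was -0.49 (SE 0.07, 95% interval -0.66 to -0.33, adjusted p = 0.0042), or 1.41-fold lower, and leaving out 1 array at a time gave -0.55 to -0.46.

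Cyclin B2, encoded by CCNB2, read 8.65, 8.58 and 8.58 in NSC and 8.53, 8.49 and 8.48 in shBRG1. The groups were apart by 0.05, and the change was -0.10 (95% interval -0.25 to 0.05, adjusted p = 0.34). The intervals of CCNB1 and CCNB2, whose promoters are printed above, did not overlap, though the difference between the B cyclins was not tested. CDK1, the kinase of both, read 8.89, 8.88 and 8.92 in NSC and 8.81, 8.89 and 8.89 in shBRG1. Its groups overlapped, and its change of -0.03 (95% interval -0.18 to 0.12, adjusted p = 0.80) had the smallest size of the 9. In all, the 3 shBRG1 values lay outside the NSC range for 6 of the 9 genes, 5 below and 1 above, against 35.5% of all genes.

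**Figure D2:**
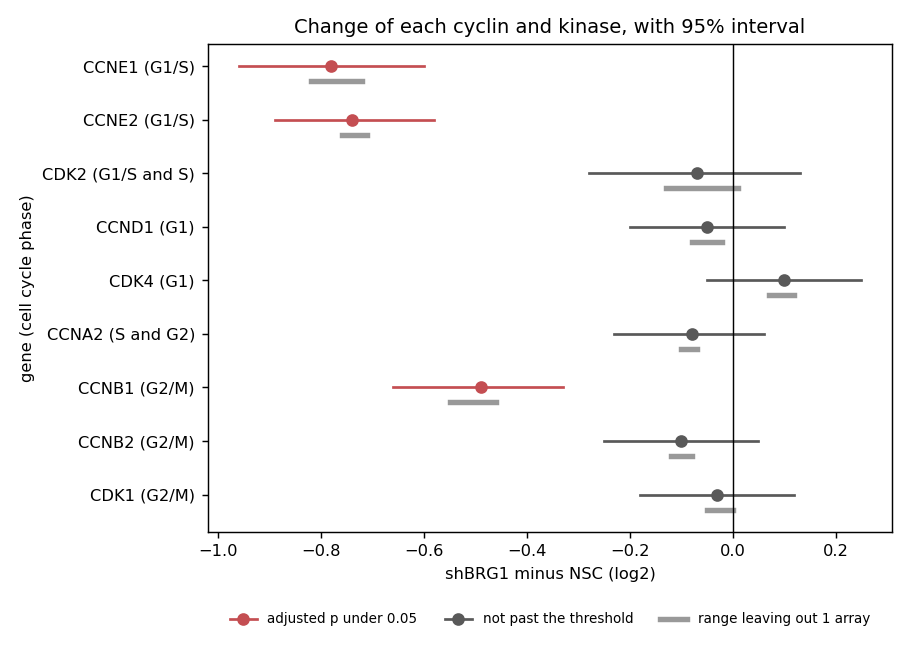
Change of each gene, shBRG1 minus NSC on the log2 scale, with the 95% interval of the limma fit; red marks an adjusted p under 0.05, and the grey bar under each gene is the range of the change when 1 array is left out. The intervals of CCNE1, CCNE2 and CCNB1 lie entirely below -0.30, and those of the other 6 genes include 0.

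The genes whose values followed the E cyclins most closely over the 6 arrays were picked by Pearson correlation among all named genes outside the set. For CCNE1 they were AAK1, OGFRL1 and C18orf54 (r = 0.999 each), with changes of -0.53, -1.36 and -1.43. For CCNE2 they were ADGRG2 (r = 0.999), E2F7 (r = 0.998) and INO80C (r = 0.998), with changes of -1.22, -1.32 and -1.20. ADGRG2 encodes an adhesion G protein-coupled receptor and INO80C a subunit of the INO80 remodelling complex. The 6 points fall into the 2 groups of arrays, so each r carries the difference between those groups.

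Of 18 measured genes of the RB, E2F, DREAM and FOXM1 group, which controls transcription of the E cyclins, 4 fell (22.2%, against 7.19% of all genes), 1 rose (5.56%, against 9.78%) and 13 did not pass the threshold. E2F7, an atypical E2F that represses E2F targets, read 7.14, 7.33 and 7.16 in NSC and 5.93, 5.85 and 5.89 in shBRG1, a change of -1.32 (SE 0.08, adjusted p = 1.8e-04). TFDP1, a dimerisation partner of many E2F proteins, read 7.75, 7.76 and 7.91 in NSC and 6.78, 6.85 and 6.93 in shBRG1, a change of -0.96 (SE 0.08, adjusted p = 5.1e-04). TFDP2, named after its value was seen, had a change of 0.03 (adjusted p = 0.85). Neither E2F7 nor TFDP1 had overlapping groups, and the gaps were 1.21 and 0.82. MYBL1, a relative of the cell cycle factor B-MYB, fell by 0.76 (log2), and the pocket protein gene RBL1 (p107), named after its value was seen, fell by 0.38. RBL2, which encodes the pocket protein p130 of resting cells, rose from 7.49, 7.53 and 7.53 to 8.16, 8.05 and 7.99, a change of 0.55 (adjusted p = 0.0028).

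The median change of these 18 genes was -0.05, against 0.01 over all genes. RB1 had a change of -0.08 (95% interval -0.24 to 0.07) and FOXM1, the activator of mitotic genes, one of -0.02 (-0.18 to 0.15). E2F1, an activating E2F, had 0.07 (-0.19 to 0.32), and MYBL2, which encodes B-MYB, had -0.16 (-0.32 to 0.01, adjusted p = 0.19). E2F4, E2F5 and E2F6 were not analysed here.

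Of the other D-type cyclins and their kinases, CDK6 fell, and CCND2 and CCND3 did not pass the threshold. It forms the same kind of G1 kinase as CDK4, and it read 8.65, 8.57 and 8.48 in NSC and 7.18, 7.28 and 7.22 in shBRG1. The groups were 1.20 apart, and the change was -1.34 (SE 0.07, adjusted p = 1.5e-04), a level 2.53-fold lower. CCND2 lay below the median gene (3.65 ± 0.07 in NSC, SD, n = 3), with a change of -0.06 (95% interval -0.26 to 0.15), and CCND3 had one of 0.11 (-0.06 to 0.27). Among 13 measured other cyclins and cell cycle kinases, CDK6 was the 1 that fell (7.69%, against 7.19% of all genes). There were 4 rises (30.8%, against 9.78%), which left 8 not past the threshold and a median of 0.05. CCNJ (0.47), CDK7, the CDK-activating kinase (0.37), CDK20 (0.33) and CCNI (0.27, named after its value was seen) rose. Without any 1 of the 6 arrays, that number of rises was 1 or 2, and CCNJ kept an adjusted p of 0.025 or below under all 15 alternatives.

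Among 22 measured cyclins and kinases of transcription and other tasks, there were 2 falls (9.09%), 1 rise (4.55%) and 19 not past the threshold, and the median was 0.01. These shares are near or below those of all genes (7.19% lower and 9.78% higher), so the called genes are given as single values. CDK19, a kinase of the Mediator complex, had a change of -0.48 (adjusted p = 0.0061) and fell, as did CCNYL1 (-0.48, adjusted p = 0.010), which lay below the median gene at 4.07 ± 0.14 in NSC (SD, n = 3). CCNY rose by 0.23, a call lost without any 1 of the 6 arrays (adjusted p 0.0095 to 0.14 over the alternatives). CDK16 had a change of 0.22 (adjusted p = 0.093).

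**Figure D3:**
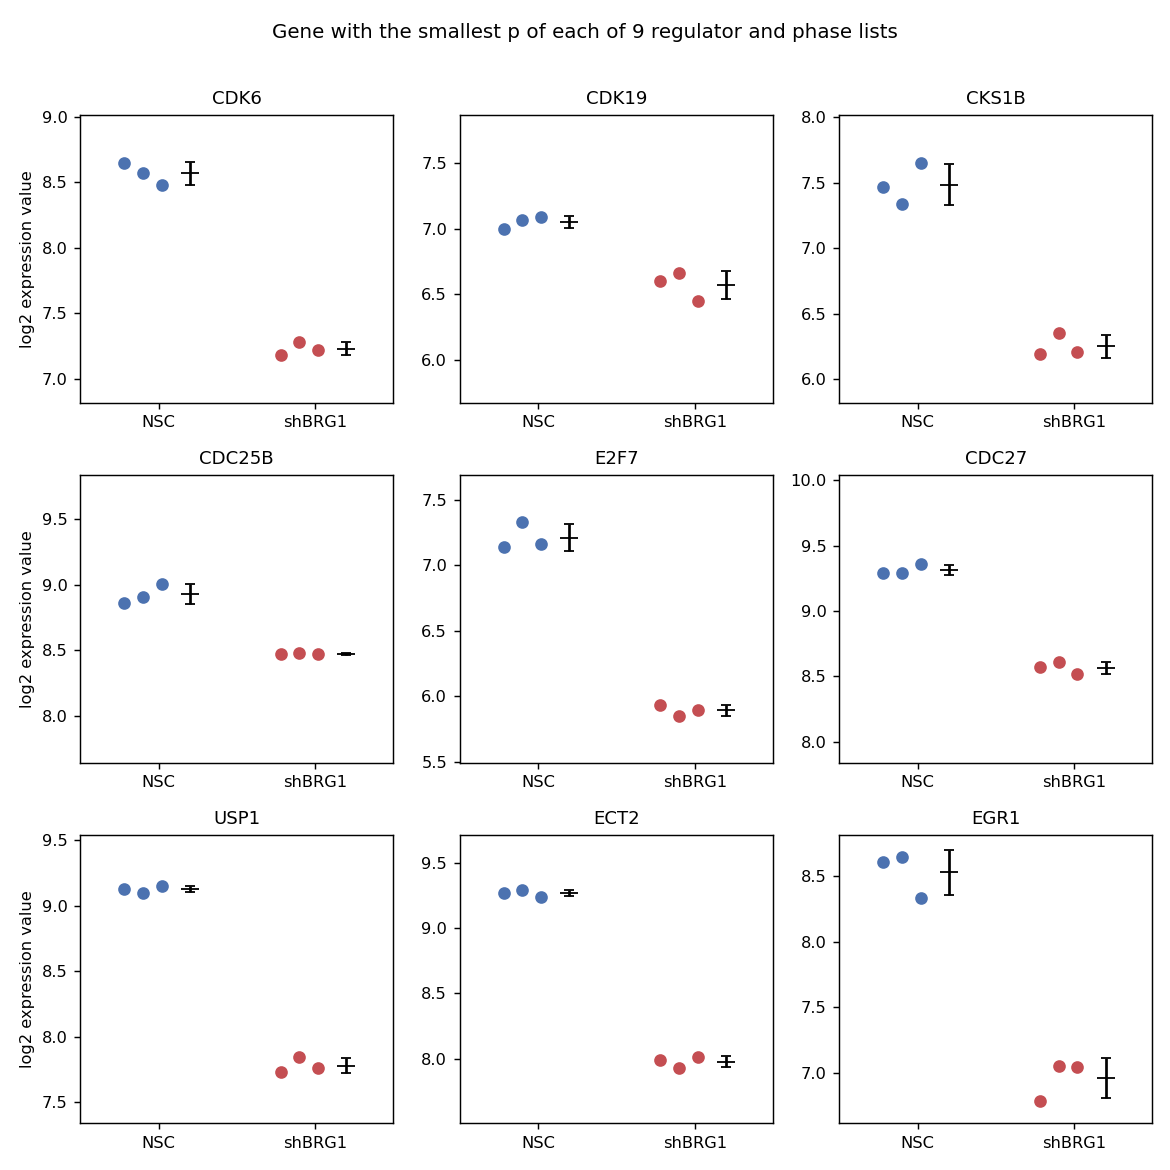
Log2 expression values on each array (NSC blue, shBRG1 red, mean and SD in black) of the gene with the smallest p in each of 9 lists of regulators and phase genes; each panel spans the same height of log2 units, larger than in the plot of the cyclins. All 9 genes were lower in shBRG1 with no overlap between groups, from a gap of 0.35 for CDK19 to one of 1.28 for EGR1. They were picked by p in this same comparison, so groups that stand apart follow from the choice. The plotted genes do not stand for their lists.

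CKS1B, a small adaptor that binds cyclin-dependent kinases and helps the SCF ligase recognise the CDK inhibitor p27, was 2.36-fold lower. It read 7.47, 7.34 and 7.65 in NSC and 6.19, 6.35 and 6.21 in shBRG1, a change of -1.24 (SE 0.10, adjusted p = 4.3e-04). Its paralogue CKS2 had a change of 0.08 (adjusted p = 0.51) and was named after its value was seen. CDKN3, a phosphatase that acts on CDK2, was lower by a change of -0.42 (adjusted p = 0.0070), and the CDK-binding proteins CABLES1 and CABLES2 moved in opposite directions, -0.52 and 0.50 (adjusted p = 0.0047 and 0.0053). Of the 8 measured CDK inhibitors and adaptors, 3 fell (37.5%, against 7.19% of all genes) and 1 rose (12.5%, against 9.78%). The other 4 were not past the threshold, and the median was -0.12. CDKN1A, CDKN1B, CDKN1C, CDKN2B, CDKN2C and CDKN2D were not analysed here, so the list says little of the inhibitors themselves.

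Around CDK1, 2 of the phosphatases that switch the kinase on, CDC25B and CDC25C, were lower. CDC25B, which acts at the start of mitosis, read 8.86, 8.91 and 9.01 in NSC and 8.47, 8.48 and 8.47 in shBRG1, a change of -0.45 (SE 0.07, adjusted p = 0.0051). CDC25C, which activates cyclin B and CDK1 complexes, changed by -0.52 (adjusted p = 0.011), and AURKA, a mitotic kinase, by -0.51 (adjusted p = 0.0092). CDC25A, which acts earlier and also on CDK2, had a change of 0.03 (95% interval -0.16 to 0.23), and WEE1, the kinase that opposes them, one of 0.15 (-0.05 to 0.34). CHEK2, a checkpoint kinase, rose by 0.64 from a widely spread NSC group (5.27 ± 0.31). Its call held without NSC replicate 3 but not without each of the other 5 arrays in turn, with an adjusted p of 0.0058 to 0.086 over the alternatives. Among 9 measured genes this list had 3 falls (33.3%, against 7.19% of all genes) and 1 rise (11.1%, against 9.78%). The other 5 were not past the threshold, and the median was 0.03.

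The ligases that destroy cyclins, and genes listed with them, gave a mixed picture. CDC27, a core subunit of the APC/C, read 9.29, 9.29 and 9.36 in NSC and 8.57, 8.61 and 8.52 in shBRG1, a change of -0.75 (SE 0.07, adjusted p = 6.5e-04). UBE2S, the enzyme that lengthens ubiquitin chains for the APC/C, changed by -0.68 (adjusted p = 0.0039). CDC20, its activator in mitosis, had a change of -0.06 (95% interval -0.30 to 0.18). FBXO5, which encodes the APC/C inhibitor EMI1, had a change of -0.24 at an adjusted p of 0.049, a call lost without any 1 of the 6 arrays. USP28, a deubiquitinase and not a ligase, rose by 0.33. FBXO4, an F-box protein linked to cyclin D1 turnover (0.35), and the APC/C subunits ANAPC5 (0.28), ANAPC16 (0.28) and ANAPC1 (0.29) also rose by small amounts. Without any 1 of the 6 arrays the rises numbered 0 or 1 in place of 5. The list had 3 falls, 5 rises and 17 genes not past the threshold among 25 measured, and a median of 0.10. For comparison, 7.19% of all genes were lower and 9.78% higher. Most genes of the ligase list lay above the level of the median gene, where larger shares were called. Its counts were not tested against those shares, so the called genes are given as single values. FBXO5 and the ANAPC genes were named after their values were seen, and FBXW7 and SKP2, F-box proteins for cyclin E and p27, were not analysed here.

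Genes of the phases themselves were counted in the same fit. In the G2 and M phase list, 21 of 47 measured genes fell (44.7%) and 2 rose (4.26%), which left 24 not past the threshold and a median of -0.22. Without any 1 of the 6 arrays, 14 to 16 of them fell. In the list of S phase genes that E2F regulates, 10 of 33 fell (30.3%) and 5 rose (15.2%), which left 18 and a median of 0.01. Of all genes, 7.19% were lower and 9.78% higher. Most genes of both lists lay above the level of the median gene, where larger shares were called. Set against all genes, the excess of falls is therefore overstated. The difference between these lists was not tested. The falls with the smallest p were USP1, a deubiquitinase of PCNA (-1.35), DBF4, the activator of the CDC7 kinase (-0.75), DSCC1, a subunit of a clamp loader (-0.76), and the sliding clamp PCNA (-0.53) in S phase. In G2 and M they were ECT2, a cytokinesis factor (-1.29), HMMR (-0.81), the condensin subunit SMC4 (-0.54) and the kinesin KIF14 (-0.65). All 8 had an adjusted p of 0.0039 or below. The rises, named after their values were seen, were GINS1 (0.43), TIPIN (0.42), MCM5 (0.45), MCM7 (0.36) and GINS2 (0.39) in S phase, and CKAP5 (0.36) and CBX5 (0.31) in the other list. The call of GINS2 rested on NSC replicates 1 and 2 and shBRG1 replicates 2 and 3, each of which ended it when left out, and that of CBX5 on replicates 1 and 2 of both groups.

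**Figure D4:**
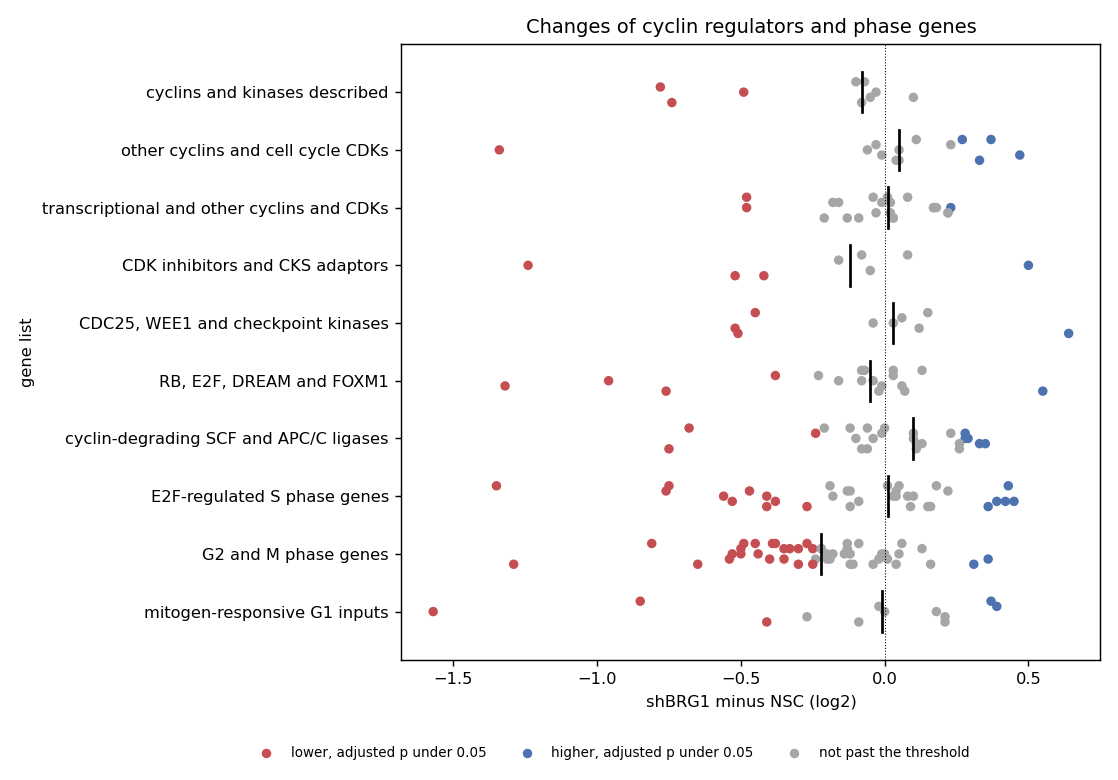
Change of every measured gene (1 point each), shBRG1 minus NSC on the log2 scale, in the set of 9 cyclins and kinases (top line) and in 9 lists of regulators and phase genes; red (lower) and blue (higher) mark an adjusted p under 0.05 and black bars are medians. The G2 and M phase list has the lowest median, -0.22, and the ligase list the highest, 0.10.

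Upstream of cyclin D1, the early response factor EGR1 was 2.98-fold lower (-1.57, SE 0.11, adjusted p = 3.5e-04) and ETS2 1.81-fold lower (-0.85), while CCND1 itself was not past the threshold. NFKB1 (0.39, adjusted p = 0.0099) and MAZ (0.37, adjusted p = 0.013) rose. JUN, an AP-1 subunit named after its value was seen, had a change of -0.41 and fell. The call of JUN held without shBRG1 replicate 2 but not without each of the other 5 arrays in turn. This list had 3 falls, 2 rises and 7 genes not past the threshold among 12 measured, and a median of -0.01. Shares of all genes were 7.19% lower and 9.78% higher, and larger among brighter genes, where most of this list lay. With so few genes and no test against those shares, the called genes are given as single values. MYCN, CTNNB1, TCF7L2 and ELK1 were not analysed here.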

How the data were processed

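Total RNA of 6 samples was hybridised to 1 array each. The deposited values are log2 expression per probe set, made by the authors with RMA, oligo 1.27, limma 3.19 and R 3.1.0, per the submitters' processing notes. The log2 scale was taken from their range (1.19 to 13.82). RMA sets arrays to a common distribution, so a shift of all genes would not be seen. For the probes, a genome build was not given in the sources used here.

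Of 52299 probe sets, 15828 carried 1 gene symbol, 0 several and 36471 none. All 15828 were found by gene identifier in the GRCh38.p14 gene table, and its symbols were used, whether or not they differed. The brightest probe set per gene left 14883 genes. The 2 groups were compared in limma (version 3.58.1, R 4.3.3) by lmFit and eBayes, two-sided, with Benjamini-Hochberg adjustment over all genes and a threshold of 0.05, after a test on simulated data. With 3 samples a side the smallest exact two-sided permutation p is 0.1, so single genes rest on limma's pooled spread. Whether the triplicates were separate cultures is not stated, so p-values cover the spread among these samples alone, and that may be technical.

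The text names the 9 genes, up to 4 genes of each list with the smallest p, 14 regulators where measured (CDKN1A, CDKN1B, CDK6, CCND2, CCND3, RB1, E2F1, FOXM1, FBXW7, SKP2, CDC20, CDC25A, WEE1 and MYBL2), and 3 genes most like each E cyclin. Members and lists were chosen with earlier results of these data known. Alternatives were median centring, cyclic loess, dropping dim genes (below the median gene), the mean of a gene's probe sets, trend and robust options, array weights, a replicate block, dropping each array, testing every probe set, and an adjusted p of 0.01. Precision is limited by the number of arrays, 3 per group. Plots were made in Python 3.11.15 (matplotlib 3.10.9).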

Additional observations from a re-analysis of the deposited data

How the results depend on the processing

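The 9 cyclins and kinases gave 135 values under 15 alternatives, of which 134 had the same direction and side of the threshold. The exception was CDK2, whose change of -0.07 became 0.0066 without NSC replicate 3 and ranged down to -0.13 (cyclic loess). Some alternatives could not alter the change of these genes, so its direction under them was fixed in advance. These were dropping dim genes, the mean of probe sets, trend and robust options, the block, every probe set, and the threshold of 0.01. Over all genes, 1455 were higher and 1070 lower. Leaving out 1 array gave 840 to 1055 higher and 694 to 859 lower genes, with fewer samples in the fit. At an adjusted p of 0.01 there were 563 higher and 523 lower genes. The replicate block gave 870 higher and 738 lower genes, and the 3 lower cyclins kept their calls in it. The labels do not say whether same-numbered arrays were handled together. Deviations of those arrays from their group means correlated at -0.044, -0.144 and -0.033. With so few arrays per group, these values cannot settle it. Falls in the G2 and M phase list ranged from 12 to 25 over the alternatives (21 as reported, 13 with the block or with every probe set tested) and in the S phase list from 6 to 12 (10 as reported). Rises ranged from 3 to 7 in the S phase list (5 as reported), from 0 to 6 among the ligases (5), from 1 to 5 among other cyclins and kinases (4), from 0 to 3 among transcriptional cyclins and kinases (1) and from 1 to 4 among the inputs to G1 (2). Rises ranged from 0 to 2 in the G2 and M phase list (2) and from 0 to 1 in the CDC25 and WEE1 list (1). Falls ranged from 2 to 3 in the CDC25 and WEE1 list (3), the ligases (3) and the inputs to G1 (3), from 1 to 2 among transcriptional cyclins and kinases (2) and from 4 to 6 in the RB and E2F list (4). CDK inhibitors and adaptors had the same counts throughout. CCND2 and CCNYL1 lay below the level of the median gene, and signal over background was not measured.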
